A study of Mus musculus with 15 samples.

Results

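The amino acid transporters were taken as the genes of the array table that carry 1 gene symbol and are either Slc3a1 or Slc3a2 or have a symbol made of Slc1a, Slc6a, Slc7a, Slc36a, Slc38a or Slc43a and a number. This rule found 60 genes among 19934 genes with 1 symbol, on 62 of 28361 rows. It used no measured value. Where a gene had 2 rows, as Slc38a1 and Slc38a9 did, the row with the higher mean log2 value over the 15 arrays stood for it. The families held 7 genes (Slc1), 2 (Slc3), 18 (Slc6), 15 (Slc7), 4 (Slc36), 11 (Slc38) and 3 (Slc43). Not all of them carry amino acids: the Slc6 family also holds carriers of noradrenaline, dopamine, serotonin, creatine and taurine, and Slc43a3 carries purine nucleobases.

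Male mice of the inbred strain C57BL/6N, weighing 24 to 26 g, gave 1 array each from RNA of the inferior lobe of the right lung, with 5 mice in each of 3 groups. The H2S-ventilated mice received 80 ppm hydrogen sulfide in synthetic air from a rodent ventilator for 6 h, the air-ventilated mice received synthetic air from the same kind of ventilator for 6 h, and the control mice breathed synthetic air on their own for 6 h. Both ventilated groups had a tidal volume of 12 ml/kg, 80 to 90 breaths per minute and a positive end-expiratory pressure of 2 cm H2O. Mice of all groups were anesthetized with ketamine (90 mg/kg) and acepromazine (1 mg/kg) and had an arterial line and a tracheal tube, so these are shared by the controls.

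Amino acid transporters move amino acids across the plasma membrane and the membranes of organelles. Some, such as the system A carriers of the Slc38 family, use the sodium gradient to load the cell with small neutral amino acids, while others exchange one amino acid for another. Several Slc7 light chains work only when bound to a heavy chain, Slc3a2 (4F2hc, CD98) or Slc3a1, and one such pair, Slc7a11 with Slc3a2 (system xc-), takes up cystine in exchange for glutamate and so feeds glutathione synthesis. When amino acids run short or cells are under stress, the transcription factor ATF4 is known to raise transcription of several of these carriers and of enzymes of amino acid synthesis.

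Array values were intensities on a linear scale, and differences were tested on log2 intensities with limma, adjusted by the Benjamini-Hochberg method over all 28361 rows. A gene passed at an adjusted p under 0.05. The thresholds of the study were also applied: these ask for a fold of 1.7 or more together with a p no higher than 0.005 before and 0.1 after adjustment. Arrays had a median intensity of 179.8 to 184.6 in H2S-ventilated, 179.1 to 187.2 in air-ventilated and 184.2 to 187.4 in control mice, and arrays of one group correlated at 0.984 to 0.994 across rows. In control lungs 32 of the 60 members had a level at or above that of the median gene, and 15 were among the dimmest 25% of genes, where a difference is harder to see. The tissue label was checked against markers of lung epithelium. The 9 measured markers of alveolar type II cells, surfactant genes among them, had a mean log2 intensity of 12.66 to 12.75 in H2S-ventilated, 12.64 to 12.72 in air-ventilated and 12.62 to 12.72 in control mice. Each label ends in a pair of numbers and does not say what either stands for. Mice are numbered here by the last number, which lies in 1 to 12 or in 20 to 28. Each group holds 3 mice of the lower and 2 of the upper set, and 1 of the 60 members (1.67%), Slc7a11, differed between the sets, against 3.55% of all genes.

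Of the 60 carriers, 17 passed in H2S-ventilated against control mice, 9 higher and 8 lower, where 4.68% and 4.07% of all genes were higher and lower. In air-ventilated against control mice 11 passed, 8 higher and 3 lower, where 1.95% of all genes were higher and 1.95% lower. The 5 control mice serve in both comparisons, which are therefore not independent of each other. The study thresholds called the same 4 genes in both, Slc7a11, Slc38a4 and Slc7a5 as higher and Slc7a10 as lower, where they called 1.31% of all genes with H2S and 0.813% with air. Groups did not overlap for 15 members with H2S (9.33% of all genes) and for 13 with air (6.47% of all genes). The 60 showed no common shift. The median log2 difference of the members was 0.00 with H2S and 0.04 with air, against -0.00 and 0.01 for all genes. Within the mice numbered 1 to 12 alone, 9 members passed with H2S and 7 with air, where 3.86% and 2.07% of all genes did. Within the mice numbered 20 to 28, with 2 mice a group, 0 passed in limma in either comparison, and 12 and 7 had an unadjusted p under 0.05, as did 10.9% and 6.11% of all genes.

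**Figure D1:**
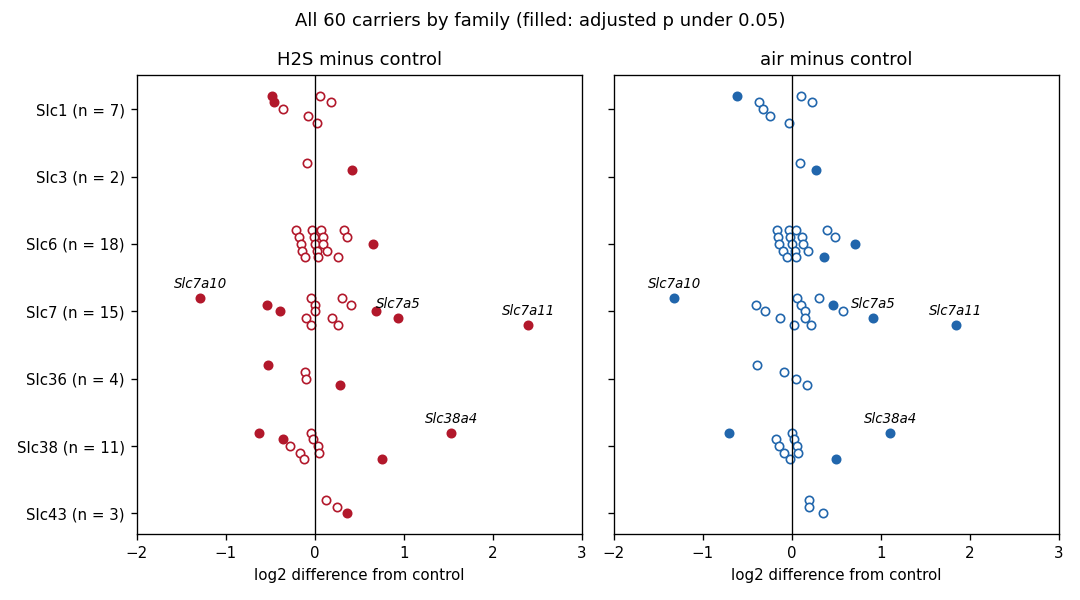
Log2 differences from control of all 60 carriers, by family, for H2S-ventilated (left, red) and air-ventilated mice (right, blue), with 5 mice a group. Filled points passed at an adjusted p under 0.05 and named points met the study thresholds, 3 to the right and 1 to the left in each panel.

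Some light chains of the Slc7 family and their heavy chain Slc3a2 rose in both ventilated groups. Slc7a11 had the largest log2 increase of the 60 members, while the lowest adjusted p of an increase was that of Slc38a4, in both comparisons. Slc7a11 (transcript cluster 10498024), the cystine and glutamate exchanger, had intensities of 1123, 1788, 2848, 1154 and 1171 in H2S-ventilated mice, 343, 1008, 1457, 1212 and 1816 in air-ventilated mice, and 739, 451, 134, 172 and 247 in control mice. Every H2S-ventilated mouse lay above every control, and 1 air-ventilated mouse lay below 2 of the controls. The log2 difference from control was 2.40 ± 0.48 (SE) with H2S, a fold of 5.27 (adjusted p = 0.00523), and 1.84 ± 0.48 with air, a fold of 3.58 (adjusted p = 0.0445). Within the mice numbered 1 to 12 these differences were 2.69 and 2.26, and within those numbered 20 to 28 they were 1.97 and 1.20. Slc7a11 itself was lower by 1.10 in log2 in the mice numbered 1 to 12 than in those numbered 20 to 28 (adjusted p = 0.0382), and the 2 highest controls were both of the upper set. The H2S call held whichever mouse was left out (adjusted p up to 0.0186). The air call was lost on leaving out any of 12 mice, at adjusted p up to 0.124, and was kept only without control replicate 1, air replicate 1 or H2S replicate 3.

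The promoter windows of the members called in both ventilated groups were read to show whether the letters of 3 response elements are present there. The windows are those of RefSeq on GRCm38.p6, from 250 bases before to 50 bases after the start site, and the table has no entry for Slc7a5. Capitals mark matches on either strand to TGATGNAAN (the C/EBP-ATF response element, which ATF4 binds) or TGACNNNGC (the core of the antioxidant response element, which Nrf2 binds). Matches to ACANNNTGT (the core of the palindromic glucocorticoid response element) were sought as well but are not set in capitals. The windows lie at chr3:50443564-50443863 on the minus strand (Slc7a11), chr15:97055907-97056206 on the minus strand (the first of 3 Slc38a4 windows) and chr7:35186135-35186434 on the plus strand (Slc7a10).
Slc7a11: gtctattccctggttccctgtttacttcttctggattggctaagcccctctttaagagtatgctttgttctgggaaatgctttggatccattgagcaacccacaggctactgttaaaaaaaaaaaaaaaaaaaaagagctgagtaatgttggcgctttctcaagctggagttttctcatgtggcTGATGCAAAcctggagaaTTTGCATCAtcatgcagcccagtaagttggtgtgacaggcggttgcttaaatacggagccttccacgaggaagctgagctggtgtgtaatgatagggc
Slc38a4: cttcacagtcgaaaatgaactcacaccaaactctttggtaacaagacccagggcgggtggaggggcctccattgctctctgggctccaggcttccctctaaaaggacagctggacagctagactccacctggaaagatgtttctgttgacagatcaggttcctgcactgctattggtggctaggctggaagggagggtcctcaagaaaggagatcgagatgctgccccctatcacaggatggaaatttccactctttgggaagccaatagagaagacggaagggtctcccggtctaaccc
Slc7a10: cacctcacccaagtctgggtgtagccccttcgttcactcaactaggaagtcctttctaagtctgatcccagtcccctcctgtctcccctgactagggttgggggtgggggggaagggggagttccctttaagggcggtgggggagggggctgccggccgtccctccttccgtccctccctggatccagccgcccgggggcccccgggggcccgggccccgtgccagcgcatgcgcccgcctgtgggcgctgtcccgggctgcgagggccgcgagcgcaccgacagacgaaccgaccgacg
The Slc7a11 window held 2 matches to the C/EBP-ATF element, TGATGCAAA at position -66 and, read on the other strand, TTTGCATCA at -48 from the start site, while the Slc38a4 and Slc7a10 windows held 0 matches to the 3 elements. Among the 60 members, 43 had a window. The C/EBP-ATF element was in 4 of these genes (9.3%, against 4.5% of 27025 genes with windows), the antioxidant element core in 9 (20.9%, against 14%) and the glucocorticoid element core in 6 (14%, against 7.9%). Genes can have several windows, 64 for the 43 members and 32851 for all genes. Per window the shares were 7.81%, 17.2% and 9.38%, against 3.95%, 12.4% and 6.85% of all windows. Other members with a C/EBP-ATF match were Slc1a4, Slc7a7 and Slc6a21. Of those with an antioxidant core, Slc38a2, Slc7a6 and Slc43a1 passed as higher with H2S. The other members with this core, Slc6a9, Slc7a1 and Slc36a1 among them, did not pass in any comparison. A match is a run of letters in a window and not a measured binding site.

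Slc7a5 (transcript cluster 10582275, LAT1), which with Slc3a2 exchanges large neutral amino acids such as leucine, had intensities of 963, 1366, 1476, 1234 and 997 in H2S-ventilated, 661, 1269, 1183, 1378 and 1589 in air-ventilated and 930, 694, 657, 437 and 501 in control mice. H2S-ventilated and control mice did not overlap, though the gap between 963 and 930 was small, and air replicate 1, the same mouse that was low for Slc7a11, lay among the controls. In both genes control replicate 1 was also the highest control and H2S replicate 3 the highest H2S-ventilated mouse. The log2 difference was 0.94 ± 0.23 with H2S (adjusted p = 0.0179) and 0.91 ± 0.23 with air (adjusted p = 0.037). Within the lower and the upper number set it was 1.01 and 0.82 with H2S, and 1.07 and 0.67 with air. The H2S call was lost without control replicate 4 or H2S replicate 3, with adjusted p up to 0.0535, and the air call without any of control replicates 2 to 5 or air replicates 2 to 5, with adjusted p up to 0.108.

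Slc3a2 (transcript cluster 10465772), the heavy chain that carries these light chains to the cell surface, was higher in both ventilated groups by a smaller step with little spread. Its intensities were 8664, 8052, 8274, 9345 and 8097 in H2S-ventilated, 8239, 7383, 7577, 7477 and 7749 in air-ventilated and 6644, 6665, 6583, 5945 and 5927 in control mice. No ventilated mouse overlapped the controls. The log2 difference was 0.42 ± 0.07 with H2S (adjusted p = 0.0015) and 0.28 ± 0.07 with air (adjusted p = 0.0322), and within the lower and upper number set it was 0.50 and 0.29 with H2S and 0.34 and 0.18 with air. The air call was lost without control replicate 4 or 5 or air replicate 1, 2, 3 or 5 (adjusted p up to 0.0994). Slc3a1, the heavy chain of the kidney and gut cystine carrier, was dim and did not pass, at 63.8 to 78.0 with H2S, 72.7 to 97.4 with air and 63.8 to 85.9 in controls.

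Slc7a6 (transcript cluster 10574985, y+LAT2), a light chain that exchanges arginine for glutamine, had intensities of 865, 755, 758, 1011 and 986 in H2S-ventilated, 776, 812, 729, 659 and 748 in air-ventilated and 644, 538, 581, 466 and 493 in control mice. Neither ventilated group overlapped the controls. The log2 difference was 0.68 ± 0.11 with H2S (adjusted p = 0.00126), 0.90 and 0.36 within the lower and upper number set. With air it was 0.46 ± 0.11 (adjusted p = 0.0242), 0.61 and 0.24 within the sets, and this call was lost without control replicate 2, 4 or 5 or air replicate 1, 2, 3 or 5 (adjusted p up to 0.0799). Its close relative Slc7a7 (y+LAT1), which does the same exchange and is known for lysinuric protein intolerance in humans, moved the other way. Slc7a7 intensities were 256, 422, 262, 383 and 312 in H2S-ventilated, 299, 377, 346, 407 and 334 in air-ventilated and 419, 423, 579, 481 and 435 in control mice, so that only H2S replicate 2 reached the controls in that group. It fell by 0.53 ± 0.14 in log2 with H2S (adjusted p = 0.0283), a call lost without control replicate 3 or 4 or H2S replicate 1, 3 or 5 (adjusted p up to 0.0775), and did not pass with air (-0.40 ± 0.14, adjusted p = 0.156).

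Of the other light chains, Slc7a8 (LAT2) had a log2 difference of 0.27 ± 0.10 with H2S and 0.21 ± 0.10 with air and did not pass (adjusted p = 0.141 and 0.383). Slc7a9, the light chain of the renal cystine carrier, and Slc7a13 were dim in every group, at 45.9 to 79.9 and 22.03 to 41.03 over all 15 mice, and did not pass.

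**Figure D2:**
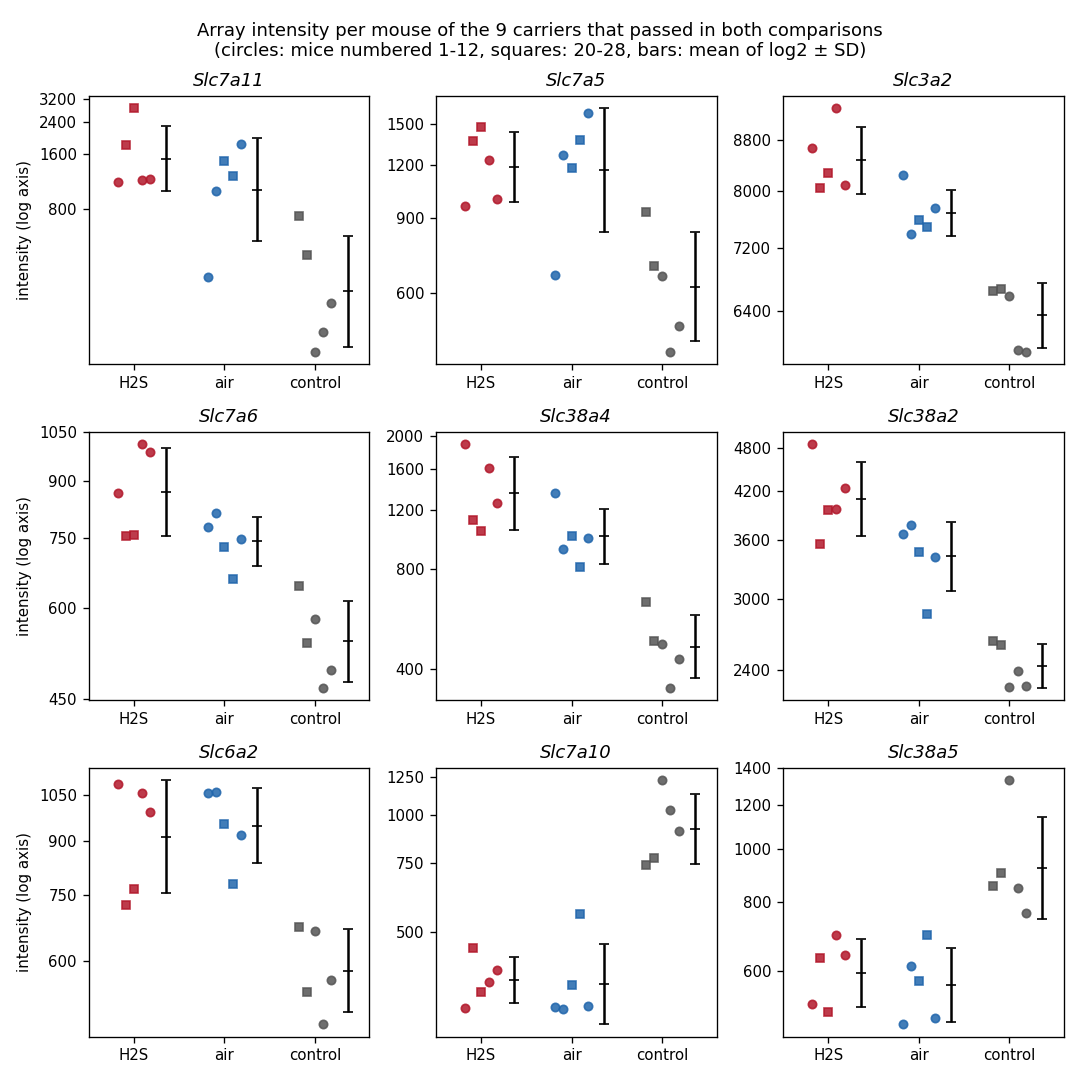
Array intensity of each mouse (vertical axis, log scale) for the 9 carriers that passed in both comparisons with control, with H2S-ventilated mice left, air-ventilated in the middle and control mice right. Circles are mice numbered 1 to 12, squares those numbered 20 to 28, and bars the mean of log2 values ± SD (n = 5). The single low air-ventilated mouse in the Slc7a11 and Slc7a5 panels is replicate 1.

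Among the sodium-coupled neutral amino acid transporters, 2 system A genes were higher in both ventilated groups. Slc38a4 (transcript cluster 10431915, SNAT4), best known from liver and placenta, had intensities of 1897, 1121, 1041, 1613 and 1257 in H2S-ventilated, 1349, 918, 1006, 811 and 990 in air-ventilated and 635, 486, 474, 350 and 428 in control mice. All 10 ventilated mice lay above all 5 controls. The log2 difference was 1.54 ± 0.18 with H2S, a fold of 2.90 (adjusted p = 0.000219), and 1.10 ± 0.18 with air, a fold of 2.15 (adjusted p = 0.00421). It was 1.92 and 0.96 within the lower and upper number set with H2S and 1.37 and 0.70 with air, and both calls held whichever mouse was left out (adjusted p up to 0.00103 and 0.0162).

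Slc38a2 (transcript cluster 10431894, SNAT2), the system A carrier known to be induced when cells are starved of amino acids or placed in hypertonic medium, had intensities of 4864, 3559, 3960, 3969 and 4236 in H2S-ventilated, 3667, 3772, 3472, 2859 and 3418 in air-ventilated and 2629, 2591, 2275, 2392 and 2279 in control mice. The ventilated mice again lay above all controls. The log2 difference was 0.75 ± 0.09 with H2S (adjusted p = 0.000262) and 0.49 ± 0.09 with air (adjusted p = 0.00787). Within the lower and upper number set it was 0.91 and 0.52 with H2S and 0.64 and 0.27 with air, and leaving out single mice ended neither call.

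By contrast, 2 other members of this family fell. Slc38a5 (transcript cluster 10598507, SNAT5), a system N carrier of glutamine, had intensities of 522, 635, 505, 699 and 641 in H2S-ventilated, 481, 612, 575, 699 and 494 in air-ventilated and 857, 903, 1332, 851 and 766 in control mice, with no overlap between ventilated and control mice. It fell by 0.63 ± 0.15 in log2 with H2S (adjusted p = 0.0133) and by 0.70 ± 0.15 with air (adjusted p = 0.0123). Within the mice numbered 1 to 12 the differences were -0.63 and -0.86, and neither passed there (adjusted p = 0.137 and 0.0682), while within those numbered 20 to 28 they were -0.63 and -0.47. Slc38a6 passed with H2S only, at 263, 322, 308, 243 and 296 in H2S-ventilated, 285, 370, 320, 404 and 288 in air-ventilated and 377, 363, 366, 372 and 345 in control mice. Its log2 difference of -0.35 ± 0.10 with H2S (adjusted p = 0.0448) passed in 5 of the 15 fits that each leave out 1 mouse, those without H2S replicate 2 or without air replicate 1, 2, 4 or 5, and was lost in the others with an adjusted p of up to 0.106. The remaining 7 Slc38 genes did not pass, Slc38a1 and the lysosomal Slc38a9 on either of their rows.

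The carrier with the largest decrease was Slc7a10 (transcript cluster 10552143, Asc-1), which moves small neutral amino acids including D-serine and is known from neurons and adipocytes. Its intensities were 320, 457, 351, 373 and 400 in H2S-ventilated, 322, 319, 365, 555 and 324 in air-ventilated and 745, 776, 1223, 1027 and 906 in control mice. Every ventilated mouse lay below every control. It fell by 1.28 ± 0.16 in log2 with H2S, to 0.41 of the control level (adjusted p = 0.000325), and by 1.32 ± 0.16 with air, to 0.40 of it (adjusted p = 0.00104). The differences were -1.53 and -0.92 within the lower and upper number set with H2S and -1.70 and -0.76 with air, and leaving out single mice ended neither call. Of 10 measured adipocyte markers, 1 passed as higher with H2S (Fabp4) and 1 with air (Plin4) and 0 passed as lower. Of all genes, 4.68% passed as higher and 4.07% as lower with H2S, and 1.95% each way with air. The mean log2 intensity of these markers was 7.56 to 8.42 in H2S-ventilated, 7.41 to 8.19 in air-ventilated and 7.45 to 8.07 in control mice. The part of adipocytes in the fall of Slc7a10 was not tested. Slc7a4, a relative of the cationic carriers with no settled transport activity, fell by 0.39 ± 0.10 with H2S (adjusted p = 0.0228), with 163, 170, 130, 177 and 137 in H2S-ventilated mice, 166, 174, 149, 190 and 145 in air-ventilated and 198, 196, 228, 203 and 189 in control mice. That call was lost without control replicate 3 or 4 or H2S replicate 3 or 5 (adjusted p up to 0.0644), and the difference with air did not pass (-0.30 ± 0.10, adjusted p = 0.128).

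Of the 5 glutamate carriers of the Slc1 family, which take up glutamate and aspartate with sodium, 3 fell in one of the comparisons with control. Slc1a6 and Slc1a7 did not pass, with log2 differences of -0.07 and 0.03 with H2S and 0.10 and -0.03 with air. Slc1a3 (GLAST) had intensities of 356, 411, 289, 426 and 384 in H2S-ventilated, 340, 268, 281, 387 and 277 in air-ventilated and 498, 445, 511, 448 and 462 in control mice. Neither ventilated group overlapped the controls. It fell by 0.62 ± 0.12 in log2 with air (adjusted p = 0.00782), -0.69 and -0.51 within the lower and upper number set, and did not pass with H2S (-0.35 ± 0.12, adjusted p = 0.0806). Slc1a2 (GLT-1) was dimmer, at 108, 115, 96.4, 90.5 and 83.1 in H2S-ventilated, 111, 110, 95.5, 119 and 100.7 in air-ventilated and 135, 118, 144, 127 and 148 in control mice, with H2S-ventilated mice below all controls. It fell by 0.46 ± 0.10 in log2 with H2S (adjusted p = 0.00791) and did not pass with air (-0.33 ± 0.10, adjusted p = 0.0839).

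Slc1a1 (EAAC1) fell by 0.48 ± 0.13 with H2S (adjusted p = 0.0284), at 422, 536, 380, 477 and 460 in H2S-ventilated against 581, 508, 809, 675 and 610 in control mice, with H2S replicate 2 above the lowest control. It did not pass with air (-0.37 ± 0.13, adjusted p = 0.143), and the H2S call was lost without control replicate 3 or 4 or H2S replicate 1, 3 or 5 (adjusted p up to 0.0776). Passing in one comparison and not in the other does not show that the ventilated groups differed, and the direct test of H2S against air passed for none of these 3 genes (adjusted p from 0.816 to 0.997). The other 4 Slc1 genes did not pass, among them the neutral amino acid exchangers Slc1a4, at 423 to 545 with H2S, 314 to 441 with air and 413 to 547 in controls, and Slc1a5 (ASCT2), at 1470 to 2002, 1701 to 1972 and 1321 to 1806 in the same order of groups.

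The Slc36 carriers split. Slc36a2 (PAT2), which carries glycine and proline, fell by 0.53 ± 0.12 with H2S (adjusted p = 0.0145), at 434, 592, 416, 490 and 442 in H2S-ventilated against 662, 696, 862, 617 and 586 in control mice, where the highest H2S-ventilated mouse just passed the lowest control. Its level with air was 442 to 610 and did not pass (-0.39 ± 0.12, adjusted p = 0.106). Slc36a4 (PAT4) rose by 0.28 ± 0.07 with H2S (adjusted p = 0.0255), at 1472, 1445, 1600, 1518 and 1619 in H2S-ventilated against 1300, 1138, 1309, 1282 and 1264 in control mice, with no overlap. The Slc36a4 call was lost without control replicate 2 or 4 or H2S replicate 3 or 5 (adjusted p up to 0.0737), and its difference with air, 0.17 ± 0.07, did not pass (adjusted p = 0.296). Slc36a1 and Slc36a3 did not pass.

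In the Slc6 family, which couples transport to sodium and chloride, 2 of 18 members passed. Slc6a2 (transcript cluster 10573956), the noradrenaline transporter, which lung endothelium is known to use to clear noradrenaline from blood, had intensities of 1087, 723, 764, 1056 and 992 in H2S-ventilated, 1057, 1059, 950, 778 and 918 in air-ventilated and 673, 541, 665, 485 and 562 in control mice. No ventilated mouse overlapped the controls. The log2 difference was 0.65 ± 0.13 with H2S (adjusted p = 0.0061), 0.88 and 0.30 within the lower and upper number set, and 0.71 ± 0.13 with air (adjusted p = 0.0077), 0.83 and 0.51 within the sets. Of the 9 measured endothelial markers 0 passed as higher, where 4.68% of all genes did with H2S and 1.95% with air. As lower passed 3 with H2S and 2 with air, among them Kdr and Tek in both, where 4.07% and 1.95% of all genes were lower. Their mean log2 intensity was 11.31 to 11.46 in H2S-ventilated, 11.36 to 11.52 in air-ventilated and 11.55 to 11.74 in control mice.

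Slc6a15, a carrier of branched-chain amino acids and proline, had intensities of 144, 114, 135, 152 and 127 in H2S-ventilated, 158, 130, 141, 139 and 151 in air-ventilated and 126, 100.7, 111, 124 and 100.9 in control mice. Air-ventilated mice lay above all controls and H2S-ventilated mice overlapped them. It rose by 0.36 ± 0.09 in log2 with air (adjusted p = 0.0462) and did not pass with H2S (0.26 ± 0.09, adjusted p = 0.112). The air call held in 3 of the 15 fits that leave out a mouse, without control replicate 1 or H2S replicate 2 or 4, and the adjusted p rose to 0.122 in the others. Slc6a9, the glycine transporter GlyT1, was just short of passing in both comparisons, with log2 differences of 0.36 ± 0.11 with H2S (adjusted p = 0.0592) and 0.39 ± 0.11 with air (adjusted p = 0.0709) and overlapping groups. Slc6a14, which takes up neutral and cationic amino acids, had differences of 0.32 ± 0.14 with H2S and 0.48 ± 0.14 with air and did not pass (adjusted p = 0.196 and 0.0806). The taurine carrier Slc6a6, one of the 5 members with the highest values in control mice, stayed at 2372 to 2593 with H2S, 2111 to 2464 with air and 2343 to 2589 in controls and did not pass.

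Slc43a1 (LAT3), a facilitator of large neutral amino acids, had intensities of 267, 255, 248, 301 and 243 in H2S-ventilated, 270, 247, 262, 251 and 261 in air-ventilated and 242, 212, 231, 156 and 188 in control mice. Both ventilated groups lay above all controls. It rose by 0.37 ± 0.10 in log2 with H2S (adjusted p = 0.0423), 0.51 and 0.15 within the lower and upper number set, and did not pass with air (0.34 ± 0.10, adjusted p = 0.0938). The H2S call held only without control replicate 1 or 3 or air replicate 1 and was lost without any of the other 12 mice (adjusted p up to 0.1). Slc43a2 (LAT4) and the nucleobase carrier Slc43a3 did not pass, with differences of 0.25 ± 0.09 and 0.13 ± 0.07 with H2S and 0.20 ± 0.09 and 0.19 ± 0.07 with air. Of the arginine carriers, Slc7a2 (CAT2) had differences of 0.30 ± 0.09 with H2S (adjusted p = 0.0539) and 0.14 ± 0.09 with air, and Slc7a3 (CAT3) 0.19 ± 0.17 with H2S and 0.58 ± 0.17 with air (adjusted p = 0.0725). Slc7a1 (CAT1) had differences of 0.41 ± 0.13 with H2S (adjusted p = 0.0762) and 0.10 ± 0.13 with air, and was higher with H2S than with air by 0.30 (95% confidence interval 0.02 to 0.59, adjusted p = 0.816). None of these 3 genes passed in any comparison.

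The 34 members outside the passing genes, the chain partners and the 5 with the highest control values did not pass in either comparison with control. By family, their log2 differences lay between -0.07 and 0.18 with H2S and between -0.25 and 0.23 with air in Slc1 (4 genes), and between -0.21 and 0.32 with H2S and between -0.17 and 0.48 with air in Slc6 (14 genes). In Slc7 (6 genes) they lay between -0.09 and 0.41 with H2S and between -0.13 and 0.58 with air, and in Slc38 (7 genes) between -0.27 and 0.05 with H2S and between -0.18 and 0.07 with air. The widest ranges were thus those of Slc7 and Slc6 with air, at whose upper ends stood Slc7a3 and Slc6a14.

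**Figure D3:**
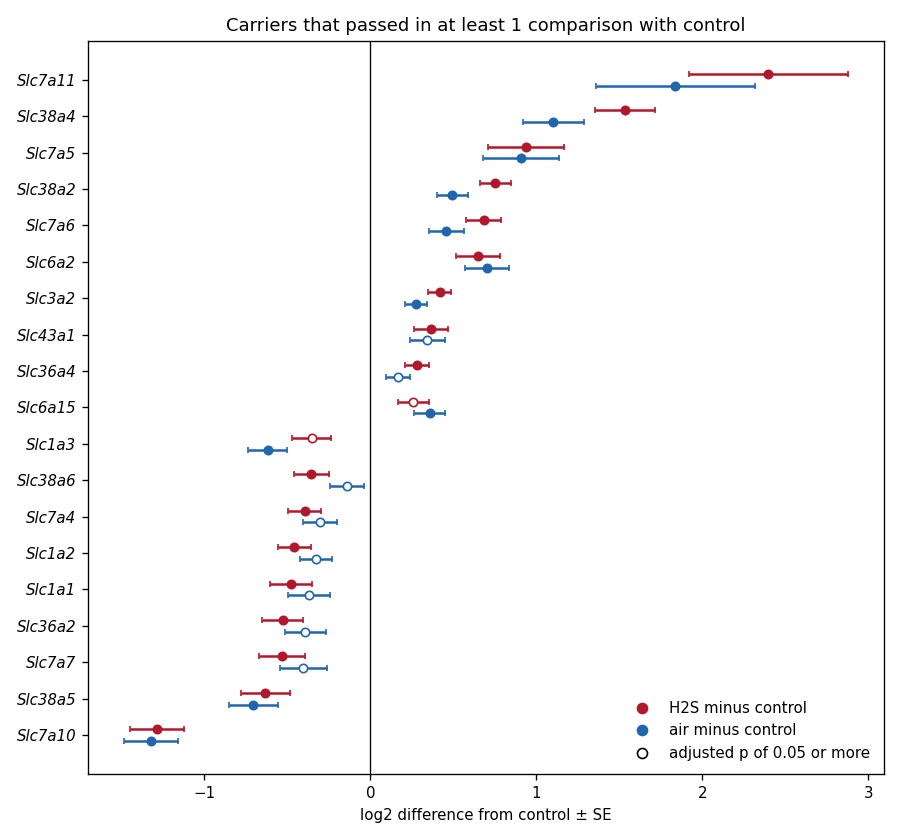
Log2 difference from control (horizontal axis, ± SE) of the 19 carriers that passed in at least 1 comparison, with H2S-ventilated mice in red above air-ventilated mice in blue for each gene (5 mice a group). Open points had an adjusted p of 0.05 or more, and for every gene shown both points lie on the same side of 0.

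Because the lung is a mixture of cell types, fewer cells of a type and less RNA per cell cannot be told apart in these data. Of the B cell markers 8 of 8 measured passed as lower in both comparisons, where 4.07% of all genes did with H2S and 1.95% with air. Their mean log2 intensity was 6.96 to 7.75 in H2S-ventilated, 7.00 to 8.08 in air-ventilated and 8.23 to 8.95 in control mice. Of 11 neutrophil markers 4 passed as higher with H2S and 3 with air, where 4.68% and 1.95% of all genes did, and 7 and 8 did not pass. Their mean log2 intensity was 9.62 to 10.58 in H2S-ventilated, 9.84 to 10.33 in air-ventilated and 9.11 to 9.997 in control mice, so that the ranges overlapped. Of 8 alveolar macrophage markers 3 passed as higher with H2S, and 1 passed as higher and 1 as lower with air. The part of these cell types in the changes of the carriers was not tested.

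Set directly against each other, H2S-ventilated and air-ventilated mice gave no carrier that passed: limma called 0 of 60, where 0.0702% of all genes were higher and 0.01% lower, and 8 members had an unadjusted p under 0.05, as did 5.9% of all genes. Of these 8, Slc7a12 (-0.40 in log2) and Slc7a3 (-0.38) were lower with H2S than with air, and the others were higher. Slc7a12 was dim, at 16.2 to 20.5 with H2S and 18.9 to 28.7 with air. A test with variances regularized in the manner of CyberT also called 0, with 10 members at an unadjusted p under 0.05, as were 5.69% of all genes. The study thresholds called 0 members (0.0652% of all genes), and the groups were separate for 0 (1.28% of all genes). The median log2 difference of the members was -0.03 and that of all genes -0.01. For the 9 carriers that passed in both comparisons with control the intervals bound what a difference could be. Slc38a2 was higher with H2S than with air by 0.26 (95% confidence interval 0.06 to 0.46, adjusted p = 0.629) and Slc38a4 by 0.43 (0.05 to 0.82, adjusted p = 0.764), so that each interval lay above 0 before the adjustment and the difference did not pass after it. The intervals of Slc7a6 (0.22, -0.00 to 0.45) and Slc3a2 (0.14, -0.00 to 0.28) touched 0.

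For Slc7a11 the interval was wide, at 0.56 (-0.45 to 1.57), so that neither no difference nor a higher level with H2S was resolved. The remaining 4 genes had estimates near 0, at 0.03 for Slc7a5 (-0.46 to 0.51), 0.04 for Slc7a10 (-0.31 to 0.38), -0.05 for Slc6a2 (-0.34 to 0.23) and 0.07 for Slc38a5 (-0.24 to 0.38). These do not show that the ventilated groups were alike, since the intervals leave room for a difference of up to 0.51 in log2.

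**Figure D4:**
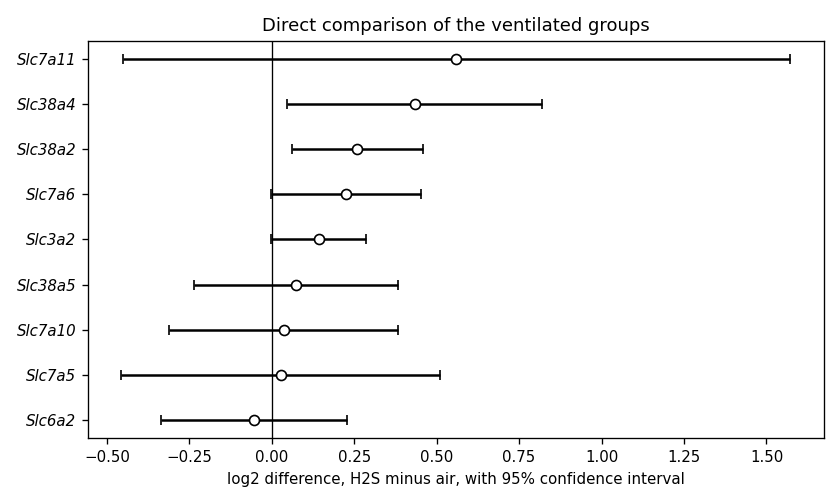
Difference between H2S-ventilated and air-ventilated mice (horizontal axis, log2, H2S minus air, with 95% confidence intervals, 5 mice a group) for the 9 carriers that passed in both comparisons with control. The intervals of Slc38a2 and Slc38a4 lie to the right of 0, and 0 genes passed after adjustment.

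Genes that work with these carriers were described by the same test. The lists were chosen with earlier results of these data known, so their counts describe these arrays and are no independent evidence. In a list of 26 measured genes of the ATF4 and amino acid response, 13 passed as higher with H2S and 4 with air, and 0 as lower. The other 13 with H2S and 22 with air did not pass. Of the enzymes of amino acid synthesis listed, Cth and Got1 passed with H2S. The enzymes Asns, Psat1, Phgdh, Psph, Pycr1 and Aldh18a1, and the stress factor Ddit3, were not among the genes that passed. Of all genes, 4.68% passed as higher with H2S and 1.95% with air. The median log2 differences of the list were 0.47 and 0.24. Leaving out 1 mouse gave 10 to 14 with H2S and 2 to 7 with air, and the mice numbered 1 to 12 alone gave 6 and 0. In those mice 3.86% and 2.07% of all genes passed, higher or lower. Atf4 itself rose by 0.56 ± 0.08 with H2S (adjusted p = 0.000554) and did not pass with air (0.22 ± 0.08, adjusted p = 0.163), and Sesn2, a leucine sensor, rose by 0.77 with H2S (adjusted p = 0.000312) and 0.41 with air (adjusted p = 0.0283). The Sesn2 call with air was lost without control replicate 2, 4 or 5 or air replicate 2, 3 or 5 (adjusted p up to 0.0833). In this list 2 genes also passed between the ventilated groups, where 0.0702% of all genes were higher with H2S than with air. Atf3, a stress-induced transcription factor, was higher with H2S than with air by 1.97 ± 0.16 (adjusted p = 2.98e-05). The study had already reported from these arrays that H2S induced Atf3. Chac1, which degrades glutathione, was higher with H2S than with air by 0.88 (adjusted p = 0.0317). The Chac1 difference was lost without any of 7 mice, control replicate 1, 2 or 4, air replicate 2 or 4, or H2S replicate 3 or 4 (adjusted p up to 0.117).

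For cystine use and glutathione, 9 of 16 genes passed as higher with H2S and 6 with air, and 0 as lower. Besides genes of cystine and glutathione, this list holds the general antioxidant and stress genes Txnrd1, Nqo1, Hmox1 and Srxn1. All of these passed with H2S, and all but Hmox1 with air, so the counts are not of glutathione genes alone. The shares of all genes that passed as higher were 4.68% with H2S and 1.95% with air. The counts of this list were 8 to 10 and 5 to 6 on leaving out 1 mouse. They were 7 and 4 in the mice numbered 1 to 12, where 3.86% and 2.07% of all genes passed, higher or lower. Gclc and Gclm, the catalytic and modifier subunits of the enzyme that makes the first step of glutathione synthesis, rose by 1.08 (adjusted p = 0.000208) and 0.85 (adjusted p = 0.00116) with H2S, and by 0.64 (adjusted p = 0.00951) and 0.76 (adjusted p = 0.00504) with air. Srxn1, a sulfiredoxin, rose by 1.51 with H2S (adjusted p = 0.00106) and 1.10 with air (adjusted p = 0.0134). In the list of glutamine, arginine and serine enzymes 3 of 22 passed as higher with H2S and 2 with air, among them Glul, glutamine synthetase, by 0.53 (adjusted p = 0.00896) with H2S and 0.63 (adjusted p = 0.00638) with air, and Arg2, mitochondrial arginase, by 1.02 (adjusted p = 0.000472) with H2S and 0.65 (adjusted p = 0.0136) with air.

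Of 28 genes of amino acid sensing by mTORC1, 4 passed as higher with H2S and 2 with air, of 18 cytosolic aminoacyl-tRNA synthetases 2 and 0, and of 21 other amino acid and peptide carriers 2 and 0, with 0 lower in any. Among all genes, 4.68% passed as higher with H2S and 1.95% with air. On leaving out 1 mouse the sensing counts were 4 to 5 with H2S and 0 to 3 with air, that of the synthetases with H2S was 1 to 2, and that of the other carriers with H2S was 0 to 3. The count of other carriers with H2S was also 0 with CyberT-style variances. The lists share genes, among them Sesn2, Chac1 and Cth. Between the ventilated groups 2 genes of the first list and 1 of the glutathione list (Chac1) passed, and 0 of the other 4.

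**Figure D5:**
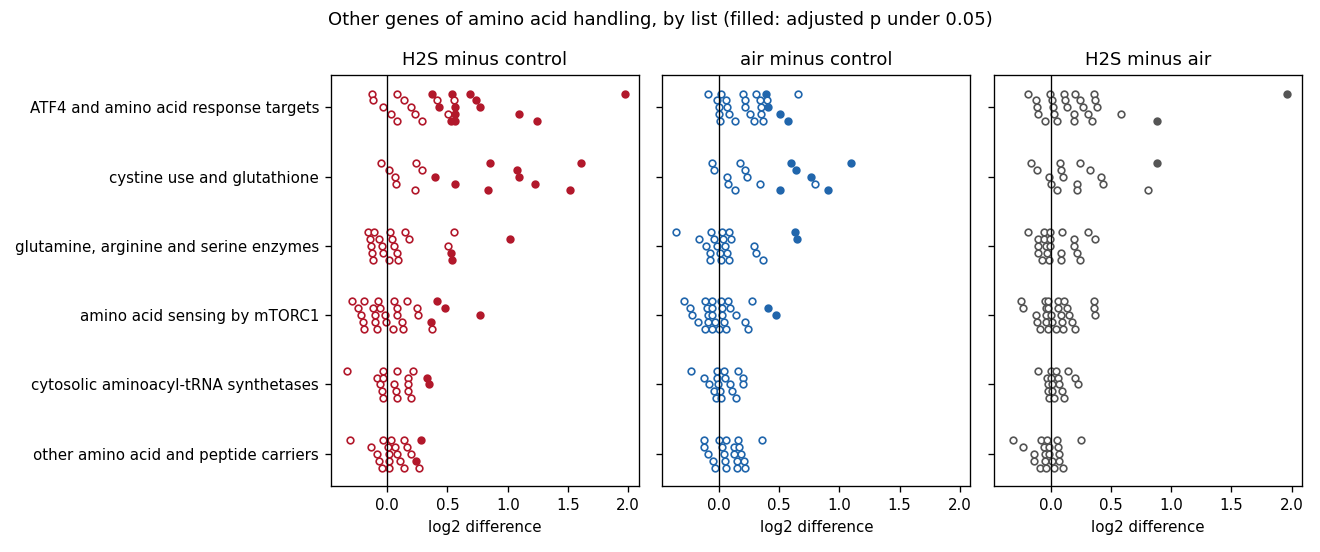
Log2 differences (horizontal axis) of other genes of amino acid handling, one row per list, for H2S minus control, air minus control and H2S minus air (5 mice a group). Filled points passed at an adjusted p under 0.05, and all of them lie to the right of 0.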

How the data were processed

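RNA of 1 lung lobe per mouse was hybridized to whole-transcript arrays, 15 arrays in 3 groups of 5 mice. The authors deposited linear intensity values, made with Command Console 3.0 and Genedata Expressionist Refiner 6.1: background was subtracted with anti-genomic probes of matched GC content, arrays were quantile normalized, and probes were summarized by RMA into 1 value per transcript cluster. Quantile normalization gives all arrays nearly the same distribution, so a shift common to most genes would not be visible. The number of arrays limits the precision. All columns were used (0 unused), and mice that breathed H2S on their own were not analysed here. Of 28361 rows, 21780 had 1 gene symbol in the platform annotation, 1617 several and 4964 are unnamed here.

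Intensities were put on the log2 scale, and lmFit and eBayes of limma 3.58.1 (R 4.3.3) were fitted to all 15 arrays without covariates, with Benjamini-Hochberg adjustment over all rows. The fit was tested on simulated data. Named members were those that passed in a comparison, the heavy chains with their light chains, the 5 with the highest values in control mice, and at most 2 further examples a family, those with the smallest unadjusted p. Slc1a6, Slc1a7, Slc7a1 and Slc7a12 were named after their values were seen. The members and the gene lists were chosen with earlier results of these data known. Alternatives were quantile normalization repeated, median centring, an offset of 16, the dimmest 25% of rows left out, array weights, a variance trend, CyberT-style variances, the mean of a gene's rows, a fit of only the groups compared, number sets and runs of 4 numbers as blocks, each number set alone, and each mouse left out.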

Additional observations from a re-analysis of the deposited data

Results flagged for a closer look

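In 5 of 78 groups of 5 mice, over 26 named members, a single mouse lay far from the other 4 by Dixon's criterion at the 95% level, and chance flags about 1 in 20 groups. Slc7a10 had an intensity of 555.18 in air replicate 4, where the next highest air-ventilated mouse had 365.43. Slc36a4 had 1649.49 in air replicate 2, where the next highest had 1369.53, and 1138.17 in control replicate 2, where the next lowest control had 1263.61. Slc3a1 had 63.84 in control replicate 3, where the next lowest control had 79.91. Slc43a3 had 6207.41 in control replicate 4, where the next lowest control had 7092.8. Of the 5 mice, 2 belong to those numbered 20 to 28.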

How the results depend on the processing

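With all 15 mice 17 carriers passed with H2S and 11 with air. Only the mice numbered 1 to 12 gave 9 and 7, and only those numbered 20 to 28 gave 0 and 0. Fitting only the groups compared gave 7 with air, and leaving out 1 mouse gave 10 to 18 with H2S and 6 to 14 with air. CyberT-style variances gave 17 with H2S and 16 with air, where 9.79% and 6.35% of all genes passed. The numbers of the mice fall into runs of 4. Mice of the same run correlated in their deviations from the group means at a mean of 0.179 (-0.179 to 0.358, 13 pairs), against -0.0374 between runs (62 pairs). Centring on the groups ties these means to each other. The main fit did not treat the runs as pairing the samples, though the mean was higher within them. With the runs as a replicate block 16 carriers passed with H2S, 10 with air and 0 between the ventilated groups. The share of all genes was not computed for this fit, for fits of only the groups compared or on leaving out 1 mouse. Whether the counts of carriers and listed genes in those fits followed a change over all genes was not tested. Of the 28 called differences, 28 were kept when dim rows were left out (which drops 10 members), with an offset, with quantile normalization or with number sets as a block, 27 with array weights or median centring, 25 with CyberT-style variances, 24 with the replicate block, and 16 (without control replicate 4) to 27 on leaving out a mouse. Between H2S and air, signs of small differences turned: Slc6a2 was 0.0200 with the replicate block, 0.0494 in mice 1 to 12 and -0.125 to 0.0287 on leaving out a mouse; Slc7a5 was -0.0701 with array weights, -0.0564 in mice 1 to 12 and -0.18 to 0.14 on leaving out a mouse; Slc7a10 was -0.17 in mice 20 to 28 and -0.0328 to 0.184 on leaving out a mouse; and Slc38a5 was -0.16 in mice 20 to 28. The cause of these turns was not tested. The fits with the replicate block or array weights kept all 15 mice, and the other fits named had fewer.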
